A study of Mus musculus with 2 samples.

Results

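The non-collagen glycoproteins and proteoglycans of the extracellular matrix, with the lysyl oxidases that cross-link it, were followed by RNA sequencing in FVB mouse breast tumours, from which cells had been sorted. FVB is an inbred laboratory strain. The 56 genes were taken by symbol from a list, and all 56 were found among the 22558 genes of the deposited tables. One library was made from tumour-initiating cells (TIC), which can seed new tumours, and the other from non-tumorigenic cells (NTC). Both came from tumours taken apart and sorted by flow cytometry without culture or treatment, and 15 ng of total RNA of each was amplified before sequencing. The sources used here do not give the mouse model of the tumours, the age of the animals, how many were pooled or the gate of the sort.

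Each group had 1 library, so there is no replicate check and no test, and every difference below is between these 2 libraries. Levels are in FPKM, fragments scaled by transcript length and by how many fragments the library mapped. Ratios are log2((TIC + 1)/(NTC + 1)), with 1 FPKM added to each level, which understates the difference of low genes. A gene counts as at least 2-fold different at a ratio of 1 or more in size. Low values of short receptor genes put the worth of 1 read at 0.0476 FPKM × kb in the TIC library and 0.0466 in the NTC library, a depth of roughly 21.0 M (TIC) and 21.5 M (NTC) fragments. Over all genes the FPKM sum was 332935 in the TIC library and 376464 in the NTC library. Of all genes, 7345 were listed at 0 in TIC and 7397 in NTC, among them in both libraries Ndufs5, a respiratory subunit that every cell with mitochondria uses, so a listed 0 need not mean that a gene is silent. Because the libraries are bulk RNA, fewer cells of a type and less RNA per cell cannot be told apart.

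Matrix glycoproteins are secreted and join the meshwork around cells. Some are structural, such as the fibrillins and elastin of elastic fibres and the nidogens and perlecan of basement membranes, the sheets on which epithelial cells rest. Others, called matricellular, such as SPARC, the thrombospondins, the tenascins and osteopontin, mainly tune how cells attach, move and receive growth factors. In the mammary gland the basal, myoepithelial layer touches the basement membrane, and the luminal layer faces the duct and makes milk.

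Members far higher in TIC, led by Sparc, Vcan (versican) and Fbln1 (fibulin-1), outnumbered those lower in TIC, of which Spp1 (osteopontin) had the largest difference. Of the 56 members, 26 were at least 2-fold higher in TIC, a share of 46.4%, against 8.5% of all genes in the files. At least 2-fold lower in TIC were 6, or 10.7%, against 7.79% of all genes, so that the share of lower members was near the background. The remaining 24 lay within 2-fold, and 20 members were below 1 FPKM in both libraries. At 4-fold or more, 21 members were higher in TIC, against 4.05% of all genes, and 3 were lower in TIC, against 2.7% of all genes. A difference of at least 16-fold was found for 11 members higher in TIC, against 1.05% of all genes, and 1 lower in TIC, against 0.581% of all genes. The median ratio of the members was 0.76, against 0 for all genes. Among the 30 members that reached 5 FPKM in either library, which a member could do through its higher library alone, 23 were higher in TIC and 5 lower by at least 2-fold. Of all genes that reached that level, 13.8% were higher in TIC and 14.2% lower, and nothing is read from these counts.

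**Figure D1:**
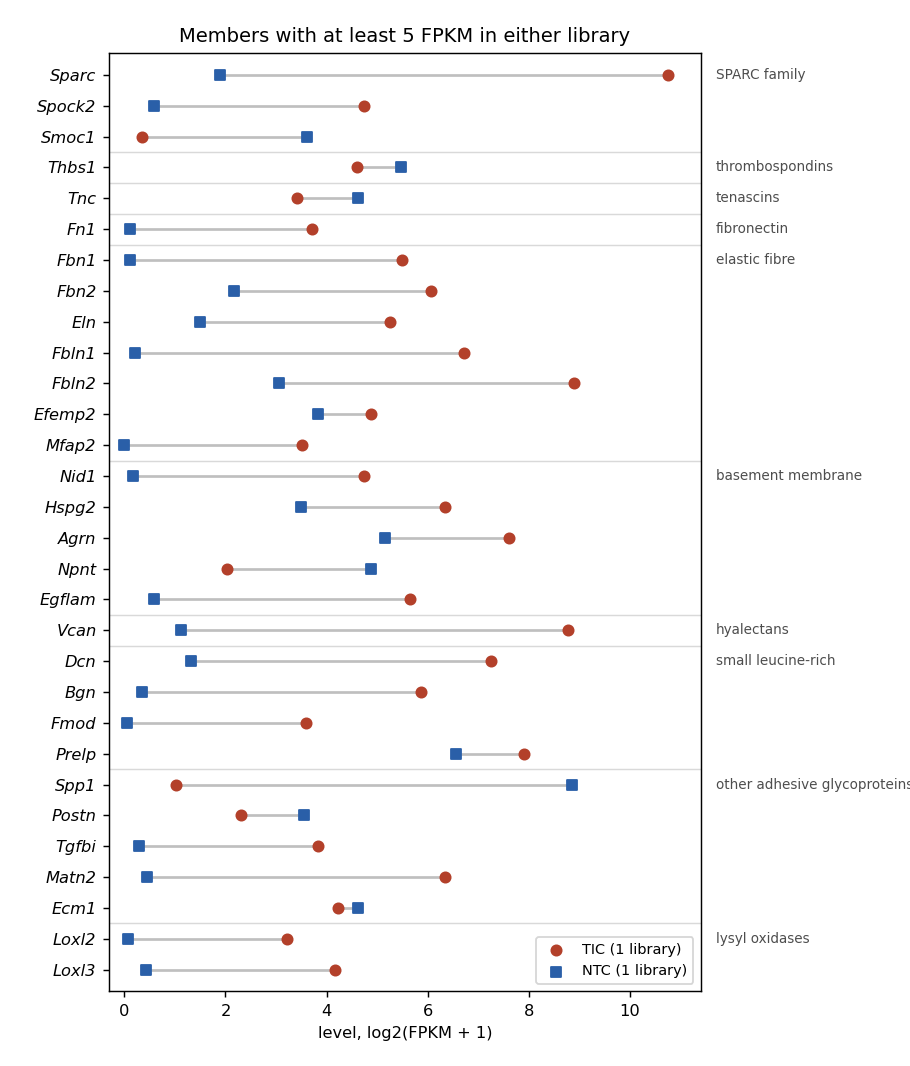
Level of each of the 30 members with at least 5 FPKM in either library, on a log2(FPKM + 1) axis, with circles for TIC and squares for NTC (1 library each), grouped by family. TIC lies to the right by at least 2-fold for 23 of them, with a ratio of 1.04 for Efemp2 and 8.85 for Sparc at the ends, and NTC lies farthest to the right of TIC for Spp1.

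Markers of cell layers and of other cell types differed between the libraries too, and their part in the differences of the matrix genes was not tested. All 11 basal mammary markers were higher in TIC by 2-fold or more, with sums of 4267 FPKM in TIC and 42.4 FPKM in NTC. All 12 luminal markers were at least 2-fold lower in TIC, with sums of 180.7 FPKM in TIC and 4338 FPKM in NTC. Fibroblasts are a usual source of Dcn, Fbn1, Fbln1 and Sparc. Of 12 fibroblast markers, 6 were higher in TIC by 2-fold or more, and none was lower by that much, with sums of 32.2 FPKM in TIC and 2.69 FPKM in NTC. Of these markers, Fap, Tcf21 and Pi16 were listed at 0 in both libraries. Pdgfra had 8.83 FPKM in TIC and 0.513 FPKM in NTC, and Col1a2 had 9.56 FPKM in TIC and 0.0119 in NTC. Cd34 reached 4.68 FPKM and Thy1 3.06 FPKM in TIC, while NTC listed both at 0. Pdgfrb had 2.44 FPKM in TIC and 0.0701 in NTC, and S100a4 had 2.91 FPKM in TIC and 0.868 in NTC. Of the other collagens in the list, Col1a1 had 0.459 FPKM in TIC and 0.339 in NTC, and Col3a1 had 0.221 FPKM in TIC and a listed 0 in NTC. Dpp4 was the fibroblast marker with the lower value in TIC, at 0.0187 FPKM in TIC and 0.892 FPKM in NTC (ratio -0.89, within 2-fold).

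Pericyte markers summed to 39.4 FPKM in TIC and 46.1 FPKM in NTC, with Rgs5 and Higd1b listed at 0 in both. Most of the TIC sum was Mcam, at 30.7 FPKM in TIC and 5.86 in NTC. Most of the NTC sum was Notch3, at 0.181 FPKM in TIC and 38.0 in NTC, so the sums say little of the other markers. Cspg4 had 8.51 FPKM in TIC and 0.0332 in NTC. Kcnj8 and Abcc9 were listed at 0 in TIC and had 1.16 and 1.04 FPKM in NTC. Endothelial markers summed to 3.42 FPKM in TIC and 1.01 FPKM in NTC, and Kdr was highest at 1.61 FPKM in TIC. Macrophage markers summed to 2.61 FPKM in TIC and 2.34 FPKM in NTC, with Ptprc, Emr1, Fcgr1, C1qa and C1qb at 0 in both. The T and NK cell, B cell, erythroid and adipocyte lists each summed to less than 1 FPKM in each library. In the Schwann cell list, Sox10, which mammary epithelium also expresses, stood at 345.8 FPKM in TIC and 288.1 FPKM in NTC.

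Promoter sequences are given for members that the RefSeq promoter table holds, which does not include Smoc1. Of these, Sparc, Vcan and Fbln1 had the 3 largest ratios toward TIC, and Spp1 and Npnt had the 2 largest toward NTC, so they show both ends of the contrast. Each is the 250 bases before the first annotated start that the table lists for the gene, 5′ to 3′ on the strand of the gene, in build GRCm38.p6. They lie at chr11:55420081-55420330 on the minus strand for Sparc, chr13:89742513-89742762 on the minus strand for Vcan and chr15:85205699-85205948 on the plus strand for Fbln1. Those of Spp1 and Npnt lie at chr5:104434861-104435110 on the plus strand and chr3:132950292-132950541 on the minus strand. Capitals mark matches, on either strand, to 4 motifs searched as exact letters: TATAAA for the TATA box, CACCTG for an E-box bound by Snail family repressors, TGANTCA for AP-1 sites and AGGAAG for the core bound by ETS factors.
Sparc: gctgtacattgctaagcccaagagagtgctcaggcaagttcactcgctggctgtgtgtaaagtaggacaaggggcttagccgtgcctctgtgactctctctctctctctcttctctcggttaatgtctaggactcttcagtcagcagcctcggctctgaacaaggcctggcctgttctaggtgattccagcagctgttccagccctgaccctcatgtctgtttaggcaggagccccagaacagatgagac
Vcan: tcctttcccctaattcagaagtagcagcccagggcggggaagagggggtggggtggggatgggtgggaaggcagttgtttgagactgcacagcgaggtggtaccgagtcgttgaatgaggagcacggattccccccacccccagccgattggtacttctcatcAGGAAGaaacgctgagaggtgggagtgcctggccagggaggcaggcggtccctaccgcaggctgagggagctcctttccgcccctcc
Fbln1: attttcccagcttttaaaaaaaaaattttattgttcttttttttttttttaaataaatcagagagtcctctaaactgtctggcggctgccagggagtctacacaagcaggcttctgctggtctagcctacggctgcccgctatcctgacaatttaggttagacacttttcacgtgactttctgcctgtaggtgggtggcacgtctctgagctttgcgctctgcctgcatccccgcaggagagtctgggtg
Spp1: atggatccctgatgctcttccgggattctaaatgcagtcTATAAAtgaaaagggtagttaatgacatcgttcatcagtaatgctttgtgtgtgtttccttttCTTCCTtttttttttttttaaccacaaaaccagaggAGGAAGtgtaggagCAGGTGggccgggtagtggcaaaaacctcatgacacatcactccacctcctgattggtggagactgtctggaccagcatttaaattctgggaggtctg
Npnt: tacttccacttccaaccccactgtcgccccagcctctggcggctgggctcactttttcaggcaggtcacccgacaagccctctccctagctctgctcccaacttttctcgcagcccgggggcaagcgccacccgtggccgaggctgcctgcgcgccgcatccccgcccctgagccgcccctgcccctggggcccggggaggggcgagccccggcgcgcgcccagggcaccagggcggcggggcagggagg

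The window of Spp1 held 1 TATA match, 1 E-box match and 2 ETS matches, that of Vcan held 1 ETS match, and those of Sparc, Fbln1 and Npnt held none of the 4. Of the 56 members, 38 had an entry in the table. The TATA letters were in the windows of 0 of 18 members at least 2-fold higher in TIC, 2 of 4 at least 2-fold lower and 4 of the other 16, against 13.0% of 27025 promoters. The E-box was in 0 of 18, 1 of 4 and 1 of 16 windows, against 17.1% of all promoters. The ETS core was in 6 of 18, 2 of 4 and 4 of 16 windows in that order, against 29.2%, and the AP-1 letters were in 1 of 18, 0 of 4 and 4 of 16, against 6.87%. These matches describe letters in the windows and say nothing of binding in these cells.

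In the SPARC family, whose members share a calcium-binding domain, the leading gene was high in TIC and its relatives went both ways. Sparc, which binds collagen and is made where matrix is laid down or remodelled, was at 1714 FPKM in the TIC library, against 2.71 FPKM in NTC, a ratio of 8.85 (chromosome 11, 55208003 to 55233582, build mm9). It ranked 9 among all genes of the TIC library and 9948 in NTC. The NTC value corresponds to an estimated 133.8 reads.

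Spock2, which encodes testican-2, a heparan sulphate proteoglycan of the family, had 25.6 FPKM in TIC and 0.499 FPKM in NTC (ratio 4.15). Its relative Spock3 was low in TIC, at 1.27 FPKM, and had 0.0145 FPKM in NTC. Smoc1, a SPARC-related protein of basement membranes that inhibits BMP signalling in frogs, ran the other way, at 0.269 FPKM in TIC and 11.3 FPKM in NTC (ratio -3.28, chromosome 12, 82127795 to 82287401). Smoc2 had the same direction at a lower level, 0.103 FPKM in TIC against 1.75 FPKM in NTC. Sparcl1 and Spock1 were below 1 FPKM in both libraries. At 2-fold or more, 3 of the 7 members of the family (42.9%) were thus higher in TIC, against 8.5% of all genes. Lower by that much were 2 (28.6%), against 7.79% of all genes.

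The members of the elastic fibre formed the largest family, with 8 of 13 (61.5%) at least 2-fold higher in TIC, against 8.5% of all genes. None of the 13 was 2-fold lower in TIC, from which nothing is read, since only 7.79% of all genes were. Its 8 members at least 2-fold higher in TIC included both fibrillins, which build the microfibrils on which elastin is laid. Fbn1 stood at 43.7 FPKM in TIC and 0.0803 FPKM in NTC (ratio 5.37), and Fbn2 had 66.2 FPKM in TIC and 3.47 in NTC (ratio 3.91). Eln, elastin itself, was at 37.3 FPKM in the TIC library, against 1.81 FPKM in NTC (ratio 3.77). Mfap2, a small glycoprotein of the microfibril, reached 10.3 FPKM in TIC, while NTC listed it at 0. All 4 genes were thus present in TIC at 10 FPKM or more and low in NTC.

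Fibulins, calcium-binding glycoproteins that join elastic fibres and basement membranes, ranged from the second highest member in TIC to listed zeros. Fbln2 had 472.0 FPKM in TIC and 7.31 FPKM in NTC (ratio 5.83, chromosome 6, 91162758 to 91222534). Fbln1 stood at 104.2 FPKM in TIC and 0.155 FPKM in NTC (ratio 6.51, chromosome 15, 85036438 to 85116724). Efemp2, also called fibulin-4, which is needed for elastic fibre assembly, was expressed in both, at 28.4 FPKM in TIC and 13.3 FPKM in NTC (ratio 1.04, just past 2-fold, and 0.87 with a pseudocount of 5 FPKM). Fbln5, which also serves elastic fibre assembly, was at 0.154 FPKM in the TIC library, against 0.0888 FPKM in NTC, and Efemp1 was listed at 0 in both. Mfap4 and Mfap5 were listed at 0 in both as well. Efemp1 and Mfap4 are rows that the files describe as in multiple gene identifiers, so their zeros are uncertain. Emilin1, an elastin-associated glycoprotein, had 1.45 FPKM in TIC and 0.0843 FPKM in NTC, and Emilin2 was below 1 FPKM in both.

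Enzymes of the lysyl oxidase family, which cross-link elastin and collagens, were represented by Loxl2 and Loxl3 and not by the founding member. Loxl2 stood at 8.27 FPKM in TIC and 0.0467 FPKM in NTC (ratio 3.15), and Loxl3 was at 16.9 FPKM in the TIC library, against 0.340 FPKM in NTC (ratio 3.74). Lox was listed at 0.0329 FPKM in TIC and at 0 in NTC. Loxl1 was below 1 FPKM in both, and Loxl4 had 2.10 FPKM in TIC and 0.738 FPKM in NTC, within 2-fold on the ratio scale. The files give Loxl3 the same locus as Htra2, a mitochondrial protease, which stood at 14.0 FPKM in TIC and 17.3 FPKM in NTC, so reads of the overlap may be divided between them.

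**Figure D2:**
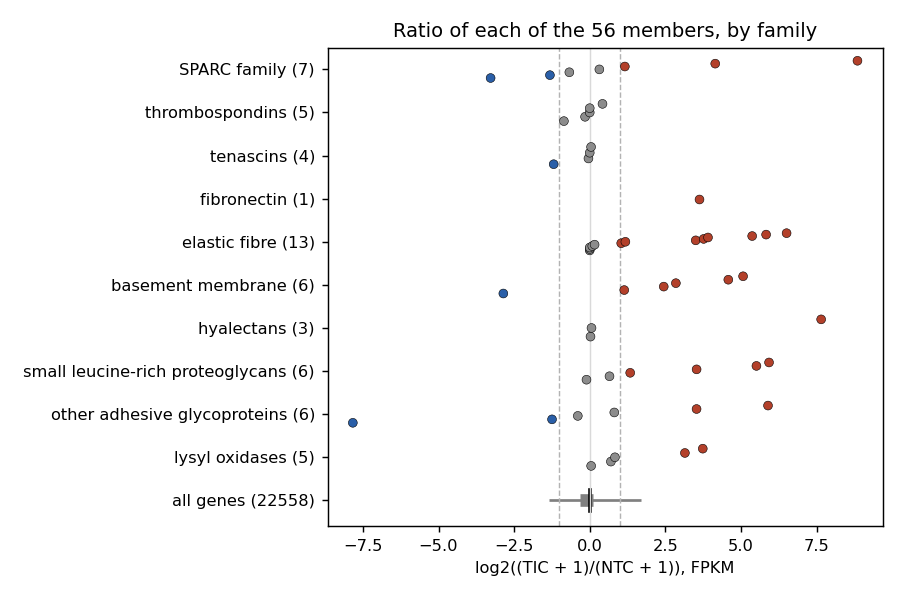
Ratio log2((TIC + 1)/(NTC + 1)) of each of the 56 members, by family, 1 point a gene, colored red when at least 2-fold higher in TIC, blue when at least 2-fold lower and grey in between. The bottom row shows all 22558 genes, with the median at 0 as a black tick, the middle 50% as a thick bar and 5th to 95th percentiles as a thin line from -1.34 to 1.69. The thrombospondin, fibronectin, elastic fibre, hyalectan, small leucine-rich and lysyl oxidase rows have no point at least 2-fold lower in TIC. Since only 7.79% of all genes were that much lower, nothing is read from this.

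Of 6 members grouped as basement membrane components, 5 (83.3%) had a TIC level 2-fold or more above NTC, against 8.5% of all genes. Smoc1, counted above in the SPARC family, is also a basement membrane protein and was lower in TIC (ratio -3.28). Agrn, agrin, a heparan sulphate proteoglycan that binds dystroglycan and organises the nerve-muscle synapse, was at 194.4 FPKM in the TIC library, against 34.8 FPKM in NTC (ratio 2.45). Hspg2, perlecan, the large heparan sulphate proteoglycan of basement membranes, had 80.0 FPKM in TIC and 10.2 FPKM in NTC (ratio 2.85). Both were therefore well expressed in NTC too. Nid1, nidogen-1, which links laminin to type IV collagen, stood at 25.8 FPKM in TIC and 0.118 FPKM in NTC (ratio 4.58), and its relative Nid2 had 1.40 FPKM in TIC and 0.0884 in NTC. Nid2 shares its locus in the files with 2700060E02Rik, which had 16.75 FPKM in TIC and 18.2 in NTC, so its low values are uncertain. Egflam, pikachurin, a dystroglycan ligand known from the photoreceptor synapse, was at 49.3 FPKM in the TIC library, against 0.498 FPKM in NTC (ratio 5.07).

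In the basement membrane group the exception was Npnt, nephronectin, a basement membrane ligand of integrin α8β1 (alpha subunit gene Itga8). It had 3.08 FPKM in TIC and 28.5 FPKM in NTC, a ratio of -2.86 (chromosome 3, 132545659 to 132613255, build mm9). Itga8 itself, named after its value was seen, stood at 22.0 FPKM in TIC and 15.0 FPKM in NTC, within 2-fold.

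Among the proteoglycans that bind hyaluronan, versican stood alone. Vcan, a large chondroitin sulphate proteoglycan of loose matrix, was at 434.7 FPKM in the TIC library, against 1.17 FPKM in NTC, a ratio of 7.65 (chromosome 13, 89794915 to 89882117). It ranked 78 among all genes in TIC and 11078 in NTC. Acan (aggrecan, of cartilage) and Ncan (neurocan, of brain) were below 0.1 FPKM in both libraries.

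The 6 small leucine-rich proteoglycans coat collagen fibrils and bind growth factors. Of these 6, 4 (66.7%) were higher in TIC by 2-fold or more, against 8.5% of all genes. The other 2 were below 1 FPKM in both libraries. Dcn, decorin, which binds collagen and TGF-beta, had 151.8 FPKM in TIC and 1.51 FPKM in NTC (ratio 5.93, chromosome 10, 96942134 to 96980796). Its closest relative Bgn, biglycan, stood at 57.1 FPKM in TIC and 0.275 FPKM in NTC (ratio 5.51). Fmod, fibromodulin, a regulator of collagen fibril growth, was at 11.1 FPKM in the TIC library, against 0.0419 FPKM in NTC, where the value rests on an estimated 2.8 reads. Prelp, which anchors basement membranes to the connective tissue below, was high in both libraries, at 238.6 FPKM in TIC and 93.8 FPKM in NTC (ratio 1.34).

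Several of these genes lie next to relatives on the chromosome. Beside Dcn, Lum (lumican) reached 0.573 FPKM in TIC, while NTC listed it at 0, and Kera and Epyc were listed at 0 in both. Beside Fmod and Prelp, Optc reached 0.0334 FPKM in TIC, while NTC listed it at 0. The group of Ogn, Omd, Aspn and Ecm2 was low in both libraries, with Ecm2 highest at 0.368 FPKM in TIC against 0.410 FPKM in NTC. The files give these 4 one shared locus together with Cenpp, so their low values cannot be fully told apart.

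Fibronectin and the other adhesive glycoproteins differed in both directions. Fn1, fibronectin, which binds integrins through an arginine-glycine-aspartate motif, had 12.1 FPKM in TIC and 0.0849 FPKM in NTC (ratio 3.60). Matn2, matrilin-2, an adaptor of filamentous matrix, stood at 80.6 FPKM in TIC and 0.371 FPKM in NTC (ratio 5.89). Tgfbi, an integrin-binding protein induced by TGF-beta, was at 13.1 FPKM in the TIC library, against 0.221 FPKM in NTC (ratio 3.53). In these 3 genes the NTC level was below 0.5 FPKM.

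Spp1, osteopontin, an integrin and CD44 ligand that is also secreted into milk, was the member highest in NTC. It had 1.04 FPKM in TIC and 464.1 FPKM in NTC, a ratio of -7.83 (chromosome 5, 104864130 to 104870072, build mm9). The TIC value corresponds to an estimated 32.9 reads. Spp1 ranked 87 among all genes of the NTC library and 11643 in TIC. Its neighbours in the cluster of mineralised-tissue genes were near 0, since Ibsp, Dspp and Mepe were listed at 0 in both libraries and Dmp1 had 0 FPKM in TIC and 0.210 FPKM in NTC. Pkd2, the adjoining gene of another family, stood at 12.1 FPKM in TIC and 4.83 FPKM in NTC.

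Of the other members with at least 5 FPKM, Tnc, Postn, Thbs1 and Ecm1 had the lower value in TIC, and Tnc and Postn were lower by at least 2-fold. Tnc, tenascin-C, a hexameric modulator of adhesion, was at 9.71 FPKM in the TIC library, against 23.5 FPKM in NTC (ratio -1.19). Postn, periostin, which binds tenascin-C and integrins, had 3.98 FPKM in TIC and 10.8 FPKM in NTC (ratio -1.25). Both fell short of 2-fold with a pseudocount of 5 FPKM, at -0.95 for Tnc and -0.82 for Postn. Thbs1, thrombospondin-1, which activates latent TGF-beta, stood at 23.4 FPKM in TIC and 43.1 FPKM in NTC (ratio -0.85, within 2-fold). In these 3 genes the TIC level was above 3 FPKM. Ecm1, a secreted glycoprotein of skin and connective tissue, lay within 2-fold, at 17.7 FPKM in TIC and 23.6 FPKM in NTC.

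The relatives of these genes were low. Thbs2 was at 4.41 FPKM in the TIC library, against 3.04 FPKM in NTC, Thbs3 was below 1 FPKM in both, and Thbs4 and Comp were listed at 0 in both. Tnn and Tnxb were below 0.1 FPKM in both, Tnr was listed at 0 in both, and Matn4 reached 0.756 FPKM in TIC, while NTC listed it at 0. In all, 26 members stayed below 5 FPKM in both libraries. Of these, Spock3, Emilin1 and Nid2 were higher in TIC by 2-fold or more, Smoc2 was at least 2-fold lower and 6 were listed at 0 in both.

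Summed over the 56 members, the level was 3949 FPKM in TIC and 785.3 FPKM in NTC, which is 1.19% of the FPKM of all genes in TIC and 0.209% in NTC. A few genes made up most of each sum. Sparc alone gave 43.4% of the TIC sum, and Sparc, Fbln2 and Vcan together gave 66.4%. In NTC, Spp1 gave 59.1%, and Spp1, Prelp and Thbs1 gave 76.5%. The median member had 3.53 FPKM in TIC and 0.242 FPKM in NTC. Without Sparc the log2 ratio of the 2 sums was 1.51 in place of 2.33, and without both Sparc and Spp1 it was 2.81. By family, the elastic fibre took 19.3% of the sum in TIC and 3.35% in NTC, the small leucine-rich proteoglycans 11.6% in TIC and 12.2% in NTC, and the basement membrane genes 8.96% in TIC and 9.47% in NTC.

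**Figure D3:**
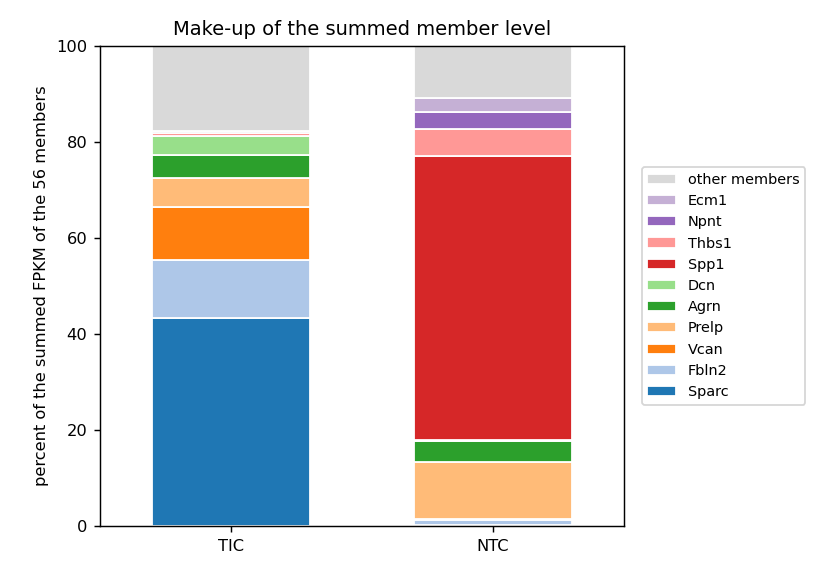
Percent of the summed FPKM of the 56 members taken by single genes in TIC (left bar) and NTC (right bar), 1 library each. Sparc fills 43.4% of the TIC bar, Spp1 fills 59.1% of the NTC bar, and Prelp and Agrn are visible in both.

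The proteins that bind these members or process them were then set beside the members. Of 52 further matrix glycoproteins found, 19 (36.5%) had a level in TIC at least 2-fold above NTC and 7 (13.5%) had one at least 2-fold below, and the median ratio was 0.08. Over all genes these shares were 8.5% and 7.79%, and the median was 0. The summed level of these 52 genes was 2570 FPKM in TIC and 3575 FPKM in NTC. That direction, opposite to the sums of the members, rests on Igfbp5 alone, whose values are given below. Vwa1, a basement membrane protein that binds perlecan, had 202.7 FPKM in TIC and 2.25 FPKM in NTC (ratio 5.97). Spon2, a secreted spondin, stood at 52.5 FPKM in TIC and 0.0492 FPKM in NTC, and Igfbp4, which binds insulin-like growth factors, had 365.8 FPKM in TIC and 8.06 in NTC. Lower in TIC were Wisp2 of the CCN family, at 0.133 FPKM in TIC and 10.5 FPKM in NTC, and Chad (chondroadherin), at 0.890 FPKM in TIC and 14.8 in NTC. Igfbp5, a growth factor binder abundant in the involuting mammary gland, was at 289.2 FPKM in the TIC library, against 2027 FPKM in NTC.

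Among 21 receptors of these proteins, 10 (47.6%) were 2-fold or more higher in TIC and 2 (9.52%) were 2-fold or more lower, and the median ratio was 0.95. Itga9, an integrin subunit that binds tenascin-C and osteopontin, had 59.7 FPKM in TIC and 0.149 FPKM in NTC (ratio 5.72). Lrp1, an endocytic receptor that takes up thrombospondin-1, stood at 51.7 FPKM in TIC and 2.02 FPKM in NTC, and the cell-surface proteoglycan Sdc3 had 57.7 FPKM in TIC and 2.38 in NTC. Lower in TIC were Ptprz1, a receptor phosphatase that binds tenascins, at 2.46 FPKM in TIC and 13.3 FPKM in NTC, and the syndecan Sdc4, at 77.9 FPKM in TIC and 241.4 in NTC. Itgb8 was at 8.68 FPKM in the TIC library, against 12.7 FPKM in NTC, within 2-fold. Dag1 (dystroglycan), the receptor of agrin, perlecan and pikachurin, was named after its value was seen and had 612.3 FPKM in TIC and 129.2 FPKM in NTC (ratio 2.24). Of the osteopontin receptors, named in the same way, Itgav had 71.6 FPKM in TIC and 13.7 in NTC, and Cd44 had 132.7 FPKM in TIC and 29.4 in NTC. Both were higher in the library where Spp1 was low.

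Of 26 enzymes that process or degrade matrix, 11 (42.3%) were 2-fold or more higher in TIC and 1 (3.85%) was 2-fold or more lower, and the median ratio was 0.89. Adamts1, a protease that cuts versican, stood at 109.3 FPKM in TIC and 0.725 FPKM in NTC. Mmp2, a gelatinase, was at 54.3 FPKM in the TIC library, against 0.290 FPKM in NTC, and the serine protease Htra1 had 36.9 FPKM in TIC and 0.324 in NTC. Tgm2, a transglutaminase that cross-links fibronectin and other matrix proteins, was the gene at least 2-fold lower in TIC, at 6.89 FPKM in TIC and 93.7 FPKM in NTC (ratio -3.58). Within 2-fold lay the lysosomal protease Ctsb, at 68.5 FPKM in TIC and 90.2 in NTC, and the lysyl hydroxylase Plod3, at 24.8 FPKM in TIC and 27.6 in NTC.

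**Figure D4:**
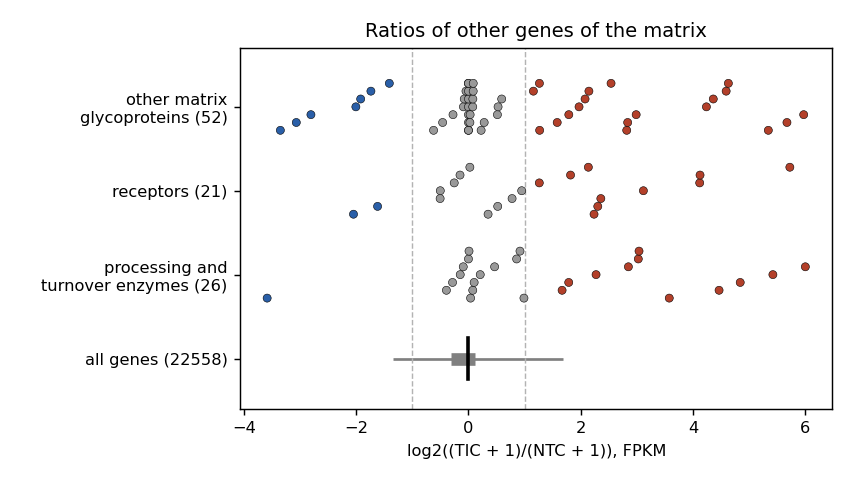
Ratio log2((TIC + 1)/(NTC + 1)) of other matrix glycoproteins (52 genes), receptors (21) and processing and turnover enzymes (26), 1 point a gene, red when at least 2-fold higher in TIC and blue when at least 2-fold lower. The bottom row gives all 22558 genes as in the plot by family, and 19, 10 and 11 points of the 3 lists lie at or beyond 1 on the right.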

How the data were processed

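RNA was sequenced in 2 libraries, TIC and NTC, grouped by the sample descriptions. The authors deposited 1 FPKM value for each gene and library, which divides fragments by transcript length and by mapped fragments. Build mm9 and the tools Cuffdiff, Cufflinks, TopHat 1.4.0 and CASAVA 1.8.2 are listed in the submitters' processing notes, with no roles or settings. Amplification from little RNA can shift levels with transcript length and base composition. Although the locus header says human, of 20009 symbols found in the RefSeq table of GRCm38.p6, 99.7% were on the same mouse chromosome. Gene positions are in mm9, with 1 added to each start, since starts that could be compared were 1 below the table's in 197 genes and equal in 11.

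No count model was fitted, and no gene was filtered out. The pseudocount was 1 FPKM. The members, lists and promoter motifs were chosen with earlier results of these data known. Of 53 further matrix glycoproteins listed, 52 were found. Members with at least 5 FPKM in either library were named, and in other lists up to 3 genes in each direction with a mean of at least 5 FPKM. Read numbers are rough estimates from the depth and the longest GENCODE transcript, and cover counting error only. At the value taken for 1 read, 38 of 57 low values in TIC and 56 of 69 in NTC came within 0.15 reads of a whole number. That value was chosen to fit these same low values best, so the counts are no independent check of it. The ratio code was tested on simulated data without noise. The expected calls came from the same formula, so this checks the code and lends no weight to the calls. Analyses used Python 3.11.15, numpy 2.4.6, pandas 2.3.3 and matplotlib 3.10.9.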

Additional observations from a re-analysis of the deposited data

How the results depend on the processing

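The number of members at least 2-fold higher in TIC was 26, and between 22 and 31 under the alternatives that kept this threshold. At 4-fold it was 21. The number at least 2-fold lower was 6, and 3 with a pseudocount of 5 FPKM or at 4-fold. The median ratio of 0.76 was 1.37 with a pseudocount of 0.1, 0.22 with 5, 3.53 and 3.60 among members with a mean of at least 1 and 5 FPKM, 0.92 when centred on the median gene, 0.82 without rows of several gene identifiers and, in a check added after seeing the data, 0.77 without members that overlap another gene. The filters on the mean leave out members near 0 in both libraries, and the same filter at 1 FPKM gave all genes a median of -0.16 in place of 0, so small differences should be read against that shift. The log2 ratio of the summed levels, 2.33, was 2.51 when both libraries were scaled to the same sum, 1.51 without Sparc and, added after seeing the data, 2.81 without Sparc and Spp1. Each of the 30 named members kept its direction with a pseudocount of 0.1 or 5 and when centred, but this could not have come out otherwise. A pseudocount cannot change which library is higher, and centring moved ratios by 0.16, less than the size of any named ratio. Only the sizes could move, and 28, 25 and 28 of the named members were at least 2-fold different under these 3 settings. No paired analysis was possible because each group has 1 library, and for the same reason no replicate could be left out. Variation between animals or sorts cannot be seen.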
